A study of Rattus norvegicus with 20 samples.

Results

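The genes described here encode the urea cycle and the enzymes that release or capture ammonia around it in rat liver: Cps1, Otc, Ass1, Asl, Arg1, Nags, Slc25a15, Gls2, Glul and Sds. They were taken by symbol, with every probe set that the platform annotation gives to that single symbol and without a threshold on their values; the choice of genes was made with earlier results of these data known. All 10 genes were measured, out of 14217 genes with a single-symbol probe set, and they had 19 probe sets: 6 for Slc25a15, 3 for Glul, 2 each for Cps1 and Asl, and 1 for each other gene. Messenger RNA was measured with 20 Affymetrix rat arrays in 4 groups of 5. All groups were Wistar Han rats (Crl:WI (Han)) labelled female. Corn oil at 5 mL/kg was given by gavage to dams every day from gestation day 6 through postnatal day 4, as vehicle alone or with PBDE-47, a polybrominated flame retardant, at 0.1, 15 or 50 mg/kg per day. Dams were 11 to 12 weeks old at gestation day 2. The left liver lobe was sampled on postnatal day 4, and neither the generation nor the litter of each liver is labelled. The labels also do not tie the arrays of a group to separate animals, so p-values measure the spread between these samples.

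The urea cycle converts ammonia, which is toxic to the brain, into urea for excretion. Cps1 and Otc act inside mitochondria, Nags makes the activator that Cps1 needs, Slc25a15 carries ornithine into the mitochondrion, and Ass1, Asl and Arg1 complete the cycle in the cytosol. In adult liver these enzymes and the glutaminase Gls2 lie mainly in periportal hepatocytes, whereas Glul, which fixes the remaining ammonia into glutamine, is confined to the hepatocytes next to the central vein. Several genes of the cycle are switched on around birth under glucagon and glucocorticoids.

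Values are log2 expression after RMA, so a difference of 1 is a 2-fold change, and the level of 1 probe set cannot be set against that of another. The tissue label was checked first: the mean of 8 measured hepatocyte markers (of 9 listed, among them Alb and Apoa1) was 14.16 to 14.27 on every array. Transcripts of other tissues were higher on some arrays. The mean of 12 skeletal muscle markers was 4.19 to 7.12 at 50 mg/kg and 3.90 to 8.54 in vehicle, that of 13 exocrine pancreas markers was 4.49 to 7.24 over all arrays, and 9 arrays lay over 2 log2 units above the lowest array on either list: replicates 1, 2, 4 and 5 at 0.1 mg/kg, replicates 3 and 5 at 15 mg/kg, replicates 1 and 4 at 50 mg/kg and replicate 2 of vehicle. Vehicle replicate 1 also stood apart, in the genes described here: it was above every other vehicle array for 11 of the 19 probe sets, against 22.1% of all probe sets. It exceeded the next vehicle array by over 1 log2 unit for Arg1 and Sds, which only 37 probe sets (0.119%) did. Each gene's changes against vehicle are therefore also given without it.

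At 50 mg/kg the arginine-producing enzyme Asl was lower than in vehicle livers, and no other member of the group passed the test in any comparison of a dose with vehicle. Of the 19 probe sets, 0 rose, 2 fell (both of Asl) and 17 did not pass (limma with Benjamini-Hochberg adjustment over all 31042 probe sets, called at an adjusted p under 0.05). Over all probe sets, 0.348% fell and 0.934% changed in either direction at this dose. The log2 change was below 0 for 18 of the 19, against 47% of all probe sets and 53.6% of those with a mean of at least 9, and its median was -0.17, against 0.01 over all probe sets. An unadjusted p under 0.05 with a lower value was found for 7 of the 19, against 6.13% of all probe sets. That share was not taken over bright probe sets alone, and several of the 19 measure the same gene. The lower dose of 15 mg/kg gave 0 calls of 19, against 0.116% of all probe sets called, although all 19 changes were below 0 (45.9% of all probe sets, 61.7% of the bright ones), their median was -0.26 and 10 of 19 had an unadjusted p under 0.05 (4.54% of all, counting lower values). At 0.1 mg/kg 0 of 19 and 0% of all probe sets were called, and 13 changes were below 0 (46.8% of all, 61% of the bright ones). The median of the 19 was -0.10, and 3 of 19 had an unadjusted p under 0.05 (3% of all counting lower values, 6.87% in either direction). The 3 comparisons share the vehicle arrays. Without vehicle replicate 1, 0 of the 19 probe sets were called at any dose, so both Asl calls at 50 mg/kg ended, while both of its slopes over the dose order still passed and 226 probe sets were called in all at 50 mg/kg. The changes were then below 0 for 11, 19 and 17 of the 19 at 0.1, 15 and 50 mg/kg, against 47%, 46.2% and 47.3% of all probe sets, with medians of -0.02, -0.18 and -0.12. The shares of the bright probe sets, which were higher in the main fit, were not taken in this one.

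**Figure D1:**
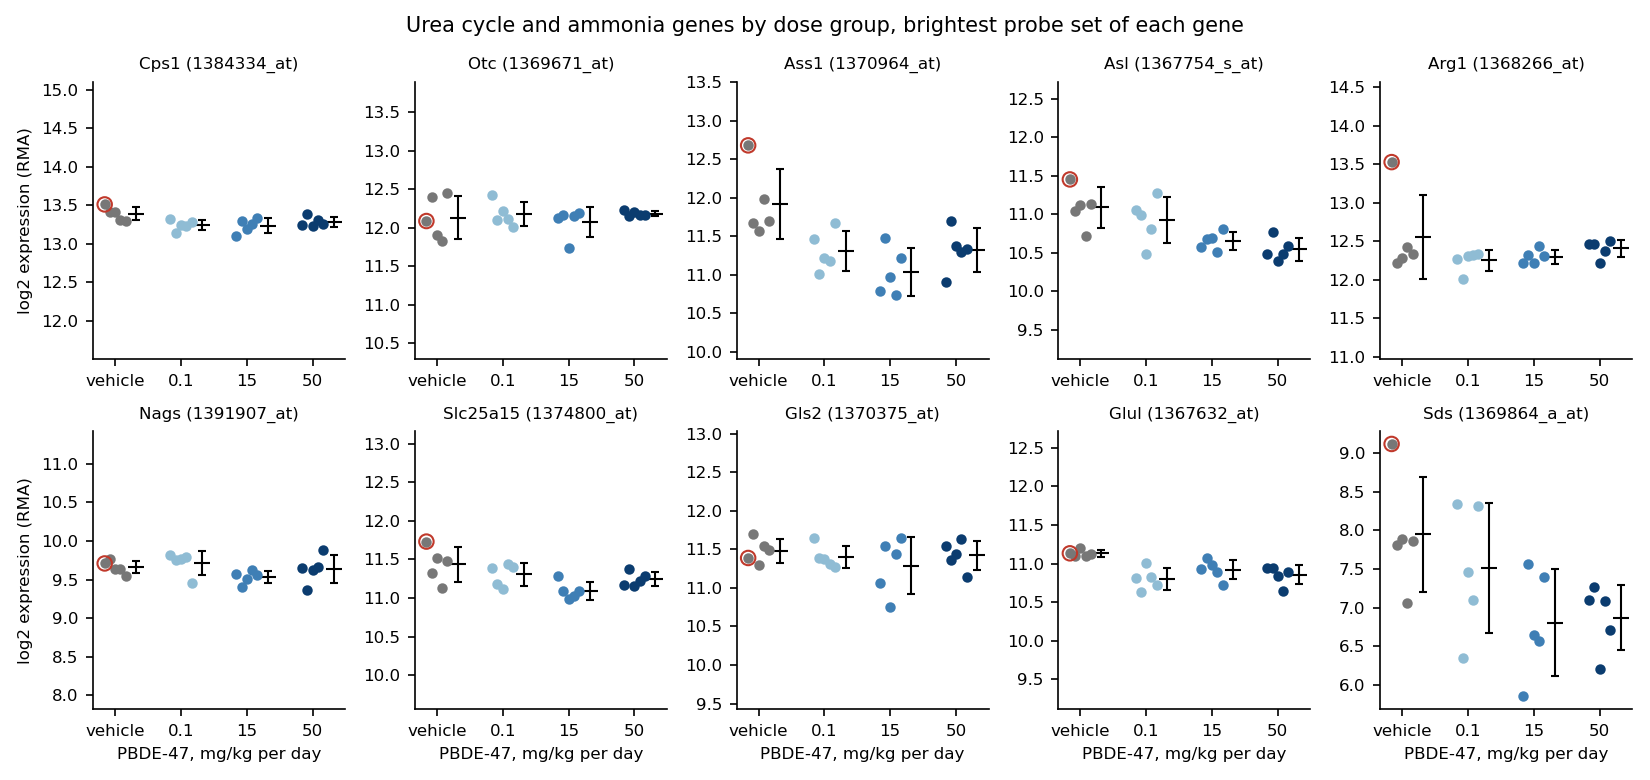
Log2 expression (RMA) of the brightest probe set of each of the 10 genes on all 20 arrays, by daily dose of PBDE-47; points are arrays, black bars the mean ± SD of 5 arrays, and a red ring marks vehicle replicate 1. Every panel spans the same number of log2 units; Asl and Ass1 lie lower at 15 and 50 mg/kg than in vehicle, and vehicle replicate 1 is far above the rest for Arg1 at 13.53 and for Sds at 9.12.

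Asl, argininosuccinate lyase, splits argininosuccinate into arginine and fumarate. It was the called member, and its 2 probe sets gave nearly the same picture. On 1368916_at the vehicle arrays had log2 expression of 11.09, 10.76, 10.64, 10.43 and 10.77 in replicates 1 to 5, and the 0.1 mg/kg arrays 10.83, 10.80, 10.19, 10.35 and 10.99. The 15 mg/kg arrays had 10.18, 10.36, 10.36, 10.05 and 10.53, and the 50 mg/kg arrays 10.09, 10.20, 10.03, 10.18 and 10.22. Every array at 50 mg/kg was below every vehicle array, which held for 2 of the 19 probe sets and for 1.18% of all probe sets (3.19% of those with a mean of at least 9). At 15 mg/kg only replicate 5 lay above the lowest vehicle array, while 3 of the 5 arrays at 0.1 mg/kg lay within the vehicle range. The mean was 10.15 ± 0.08 at 50 mg/kg and 10.74 ± 0.24 in vehicle (SD, n = 5 each), 1.51-fold lower (log2 change -0.59, SE 0.14, 95% interval -0.88 to -0.31, limma adjusted p = 0.0444).

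On 1367754_s_at the 50 mg/kg arrays had 10.49, 10.77, 10.39, 10.48 and 10.59, against 11.45, 11.04, 11.12, 10.71 and 11.13 in vehicle. Here the groups overlapped by 1 array on each side, replicate 2 at 50 mg/kg and vehicle replicate 4. The change was 1.46-fold lower (log2 change -0.55, SE 0.13, limma adjusted p = 0.0488). The 15 mg/kg log2 changes were -0.44 on both probe sets (adjusted p = 0.222 on 1368916_at and 0.212 on 1367754_s_at), and at 0.1 mg/kg they were -0.11 and -0.17. The platform annotation and its gene ID assign 1367754_s_at to Asl, but the accession listed for it belongs to Hnrnpab in the RefSeq table. Its deviations from the group means followed those of 1368916_at over the 20 arrays (Pearson r = 0.92, Spearman rho = 0.92, permutation p = 1e-05 for each, the smallest the permutations can give, adjusted p = 1e-04 over 20 pairs of probe sets of 1 gene, r = 0.87 without the 2 arrays farthest from the median). With the probe set 1370309_a_at of Hnrnpab they gave r = 0.20 (rho = 0.18, permutation p = 0.448 and 0.474).

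Both calls were close to the threshold. Without vehicle replicate 1 the log2 changes at 50 mg/kg were -0.51 on 1368916_at (limma adjusted p = 0.0966) and -0.46 on 1367754_s_at (adjusted p = 0.109). They were then -0.35 on both at 15 mg/kg and -0.02 and -0.07 at 0.1 mg/kg. Without the 9 arrays with muscle or pancreas transcripts, which left 3 arrays at 50 mg/kg and 4 of vehicle, the changes at 50 mg/kg were -0.58 (adjusted p = 0.237) and -0.52 (adjusted p = 0.351). The same omission left only replicate 3 at 0.1 mg/kg, with changes of -0.54 and -0.61 there. With the actin 3' to 5' difference, a measure of RNA quality, in the fit the changes at 50 mg/kg were -0.54 and -0.55 and did not pass (limma adjusted p = 0.0866 and 0.0815). The same held with the muscle, pancreas and erythroid list means in the fit (-0.61 and -0.56, adjusted p = 0.0572 and 0.0817). Over all single arrays left out in turn, the call held in 8 of 20 fits for 1368916_at and in 4 of 20 for 1367754_s_at, with the change always below 0. For 1368916_at it ended without any 1 array at 50 mg/kg, without replicate 1, 2 or 3 at 15 mg/kg and without vehicle replicate 1, 2, 3 or 5 (limma adjusted p = 0.0512 to 0.0982). For 1367754_s_at it held only without replicate 3 or 5 at 0.1 mg/kg, replicate 2 at 50 mg/kg or vehicle replicate 4, and the other 16 fits gave an adjusted p = 0.055 to 0.128. Markers of Kupffer cells, the liver macrophages, were lower in the same samples. Of 7 measured markers 4 fell at 50 mg/kg (C1qb, C1qc, Cd163 and Cd68), against 0.348% of all probe sets. The Kupffer list mean was 9.21 to 9.59 at 50 mg/kg and 9.86 to 10.01 in vehicle, and the hepatocyte list mean was 14.17 to 14.25 and 14.22 to 14.26. Fewer cells of a type and less RNA per cell cannot be told apart in these samples, and the part of the Kupffer cells in the result for Asl was not tested. Erythroid markers (8 measured, 0 called) averaged 8.02 to 9.89 at 50 mg/kg and 8.96 to 9.81 in vehicle. Neutrophil markers (4 measured, 0 called) averaged 9.04 to 10.30 and 9.87 to 11.44. All 8 erythroid and all 4 neutrophil changes at 50 mg/kg were below 0. An unadjusted limma p under 0.05 was found for 0 of the 8 and 3 of the 4, against 13% of all probe sets. The part of these cells was not tested either.

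**Figure D2:**
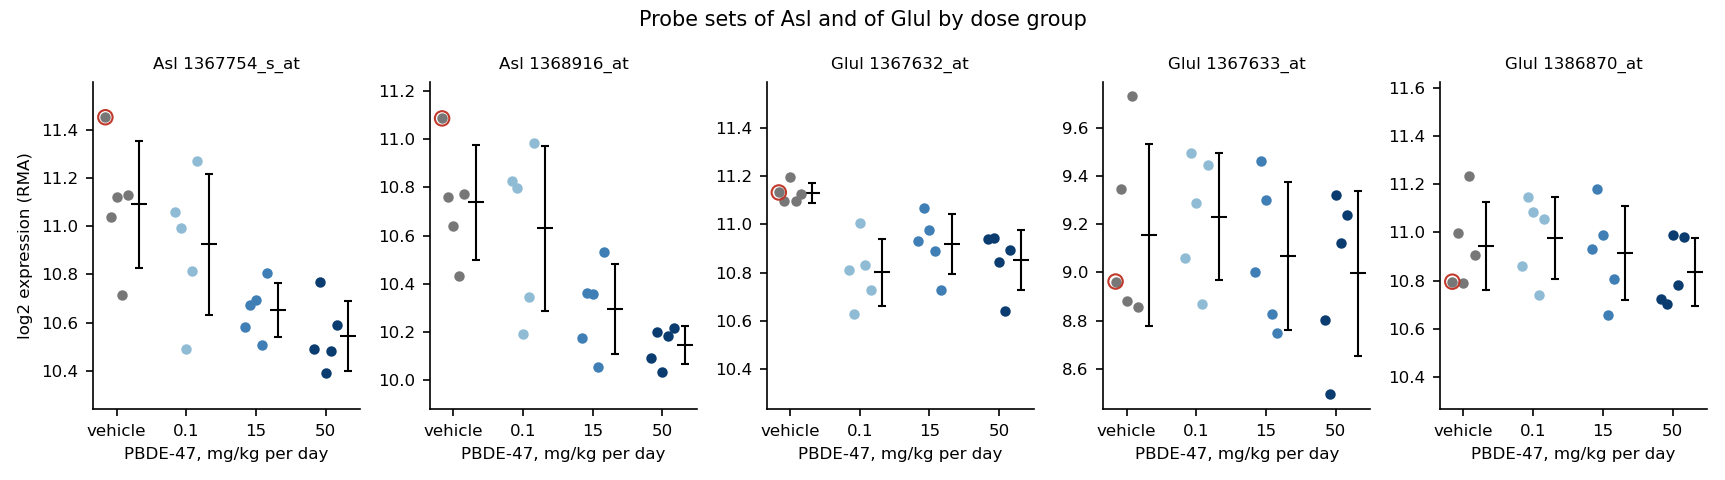
Log2 expression (RMA) of the 2 probe sets of Asl and the 3 of Glul on all 20 arrays, by daily dose; points are arrays, bars the mean ± SD of 5 arrays, and a red ring marks vehicle replicate 1. Both Asl probe sets step down toward 50 mg/kg, whereas of the Glul probe sets only 1367632_at has all 15 dosed arrays below all vehicle arrays.

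Ass1, argininosuccinate synthase, joins citrulline and aspartate in the step before Asl. Its probe set 1370964_at had 12.68, 11.67, 11.57, 11.99 and 11.69 in vehicle, and 11.47, 11.02, 11.21, 11.18 and 11.68 at 0.1 mg/kg. At 15 mg/kg it had 10.80, 11.48, 10.97, 10.73 and 11.22, and at 50 mg/kg 10.90, 11.70, 11.37, 11.30 and 11.34. Every array at 15 mg/kg was below every vehicle array, which held for 2 of the 19 probe sets and for 0.754% of all probe sets (1.39% of the bright ones). At 0.1 and 50 mg/kg 1 array reached into the vehicle range. The log2 change was -0.61 at 0.1 mg/kg (interval -1.01 to -0.20, limma adjusted p = 0.532), -0.88 at 15 mg/kg (interval -1.29 to -0.47, adjusted p = 0.0957) and -0.60 at 50 mg/kg (SE 0.19, adjusted p = 0.177), so Ass1 did not pass the test at any dose. Without vehicle replicate 1, which was 0.69 above the next vehicle array, the changes were -0.42 at 0.1 mg/kg, -0.69 at 15 mg/kg (limma adjusted p = 0.174) and -0.41 at 50 mg/kg (adjusted p = 0.323).

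Because Asl and Ass1 carry consecutive steps and had the largest changes among the cycle enzymes at 15 and 50 mg/kg, the 250 bases before their start sites are shown from RefSeq on GRCr8, at chr12:32295658-32295907 for Asl and chr3:35149480-35149729 for Ass1, both on the plus strand. Capitals mark matches, on either strand, to 6 motifs searched.
Asl: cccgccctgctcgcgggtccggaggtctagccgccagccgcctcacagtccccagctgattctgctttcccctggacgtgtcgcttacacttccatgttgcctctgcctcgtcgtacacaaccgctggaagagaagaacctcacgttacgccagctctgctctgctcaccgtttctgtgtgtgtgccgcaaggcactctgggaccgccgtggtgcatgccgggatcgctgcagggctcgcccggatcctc
Ass1: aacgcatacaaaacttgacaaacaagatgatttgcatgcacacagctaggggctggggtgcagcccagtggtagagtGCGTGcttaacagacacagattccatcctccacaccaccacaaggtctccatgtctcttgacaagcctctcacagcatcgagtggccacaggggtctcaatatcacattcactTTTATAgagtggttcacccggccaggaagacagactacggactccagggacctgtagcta
The motifs were GCGTG (the core of the element bound by the aryl hydrocarbon receptor), AGGTCA (a nuclear receptor half-site), TTGCNNAA (the C/EBP core), TGACG (a cyclic AMP element half-site), CCAAT and TATAAA. Windows from 250 bases before to 50 after a start site were available for 8 of the 10 genes, 10 windows in all; those of Arg1 and Sds were not analysed here. The window of Asl held 0 matches. That of Ass1 held GCGTG at -173 and TATAAA in reverse at -60 from the start site. GCGTG was in 4 of the 10 windows, against 29.7% of 33469 such windows, AGGTCA in 1 (16.2%), TTGCNNAA in 0 (10.6%), TGACG in 3 (21.2%), CCAAT in 4 (37.5%) and TATAAA in 1 (14.2%), with no matches overlapping. These matches describe letters only.

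Cps1, carbamoyl phosphate synthetase 1, fixes ammonia in the first and rate-limiting step. Its probe set 1370151_at had 12.84, 12.46, 12.16, 12.28 and 12.38 in vehicle, 12.38, 12.24, 12.14, 11.88 and 12.40 at 0.1 mg/kg, 11.71, 12.22, 12.09, 12.14 and 11.97 at 15 mg/kg, and 12.17, 12.04, 12.15, 12.15 and 12.17 at 50 mg/kg. The 50 mg/kg arrays lay close together at the low end of the vehicle range, with 3 of 5 below the lowest vehicle array. The log2 change was -0.22 at 0.1 mg/kg (limma adjusted p = 0.775), -0.40 at 15 mg/kg (adjusted p = 0.213) and -0.29 at 50 mg/kg (adjusted p = 0.299). The other probe set, 1384334_at, had log2 changes of -0.15, -0.16 and -0.10 at the same doses, with intervals that reached no lower than -0.28. With vehicle replicate 1 left out, the changes at 0.1, 15 and 50 mg/kg were -0.11, -0.29 and -0.18 on 1370151_at and -0.12, -0.13 and -0.07 on 1384334_at. Its values were 13.30 to 13.51 in vehicle and 13.24 to 13.39 at 50 mg/kg, so the groups overlapped.

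Otc, ornithine transcarbamylase, makes citrulline from the product of Cps1. On 1369671_at it had 12.23, 12.15, 12.20, 12.17 and 12.16 at 50 mg/kg, against 12.09, 12.40, 11.90, 11.83 and 12.45 in vehicle. The 50 mg/kg arrays all fell within the vehicle range, and the log2 changes were 0.04, -0.06 and 0.05 at 0.1, 15 and 50 mg/kg, with an interval of -0.19 to 0.29 at 50 mg/kg. Nags, N-acetylglutamate synthase, had 9.36 to 9.88 at 50 mg/kg and 9.55 to 9.77 in vehicle on 1391907_at, with changes of 0.05, -0.13 and -0.03 at the 3 doses in order and an interval of -0.20 to 0.15 at 50 mg/kg. Leaving out vehicle replicate 1 gave, in the same order, 0.03, -0.07 and 0.04 for Otc and 0.06, -0.12 and -0.02 for Nags. Neither gene passed the test at any dose.

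Slc25a15, the mitochondrial ornithine carrier, was measured by 6 probe sets, none of which passed the test. On the brightest, 1374800_at, the 15 mg/kg arrays had 11.28, 11.09, 10.99, 11.02 and 11.09, against 11.73, 11.32, 11.52, 11.12 and 11.48 in vehicle. All but 1 of the 15 mg/kg arrays were below the lowest vehicle array (log2 change -0.34, interval -0.54 to -0.14, limma adjusted p = 0.193), and the change at 50 mg/kg was -0.20. The other 5 gave -0.38 to -0.08 at 15 mg/kg and -0.27 to -0.03 at 50 mg/kg. The changes of 1374800_at without vehicle replicate 1 at 0.1, 15 and 50 mg/kg were -0.06, -0.27 and -0.12, and those of the other 5 were 0.01 to 0.15, -0.24 to -0.03 and -0.13 to -0.03. At 50 mg/kg the change was -0.27 with that array and -0.13 without it on 1393947_at, -0.23 and -0.12 on 1397647_at, and -0.17 and -0.08 on 1393342_at. The probe set 1381440_at, with a mean of 3.58 and only 16.7% of probe sets dimmer, lay below the median of every array (5.61 to 5.65) and is of little use for the gene's level. Its deviations ran against those of 1397647_at (r = -0.57, rho = -0.68, permutation p = 0.0132 and 0.00431, adjusted p = 0.0376 and 0.0144 over the 20 pairs, r = -0.48 without the 2 farthest arrays), whereas 1374800_at and 1393342_at followed each other (r = 0.88, rho = 0.79, permutation p = 7e-05 and 6e-04, adjusted p = 0.000467 and 0.004 over the 20 pairs, r = 0.77 without the 2 farthest arrays).

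Arg1, arginase 1, releases urea from arginine in the last step. Its probe set 1368266_at had 13.53 in vehicle replicate 1, and 12.21, 12.29, 12.43 and 12.34 in the other vehicle arrays. At 50 mg/kg it had 12.47, 12.47, 12.22, 12.37 and 12.50. Apart from that single vehicle array the ranges of both groups nearly coincided. The log2 changes were -0.31, -0.26 and -0.15 at 0.1, 15 and 50 mg/kg, with limma adjusted p = 0.775 at both ends of that range of doses and 0.56 at 15 mg/kg, and without vehicle replicate 1 they were -0.06 at 0.1 mg/kg, -0.02 at 15 mg/kg and 0.09 at 50 mg/kg (interval -0.08 to 0.26). The size at 0.1 and 15 mg/kg and the direction at 50 mg/kg therefore rested on 1 array.

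**Figure D3:**
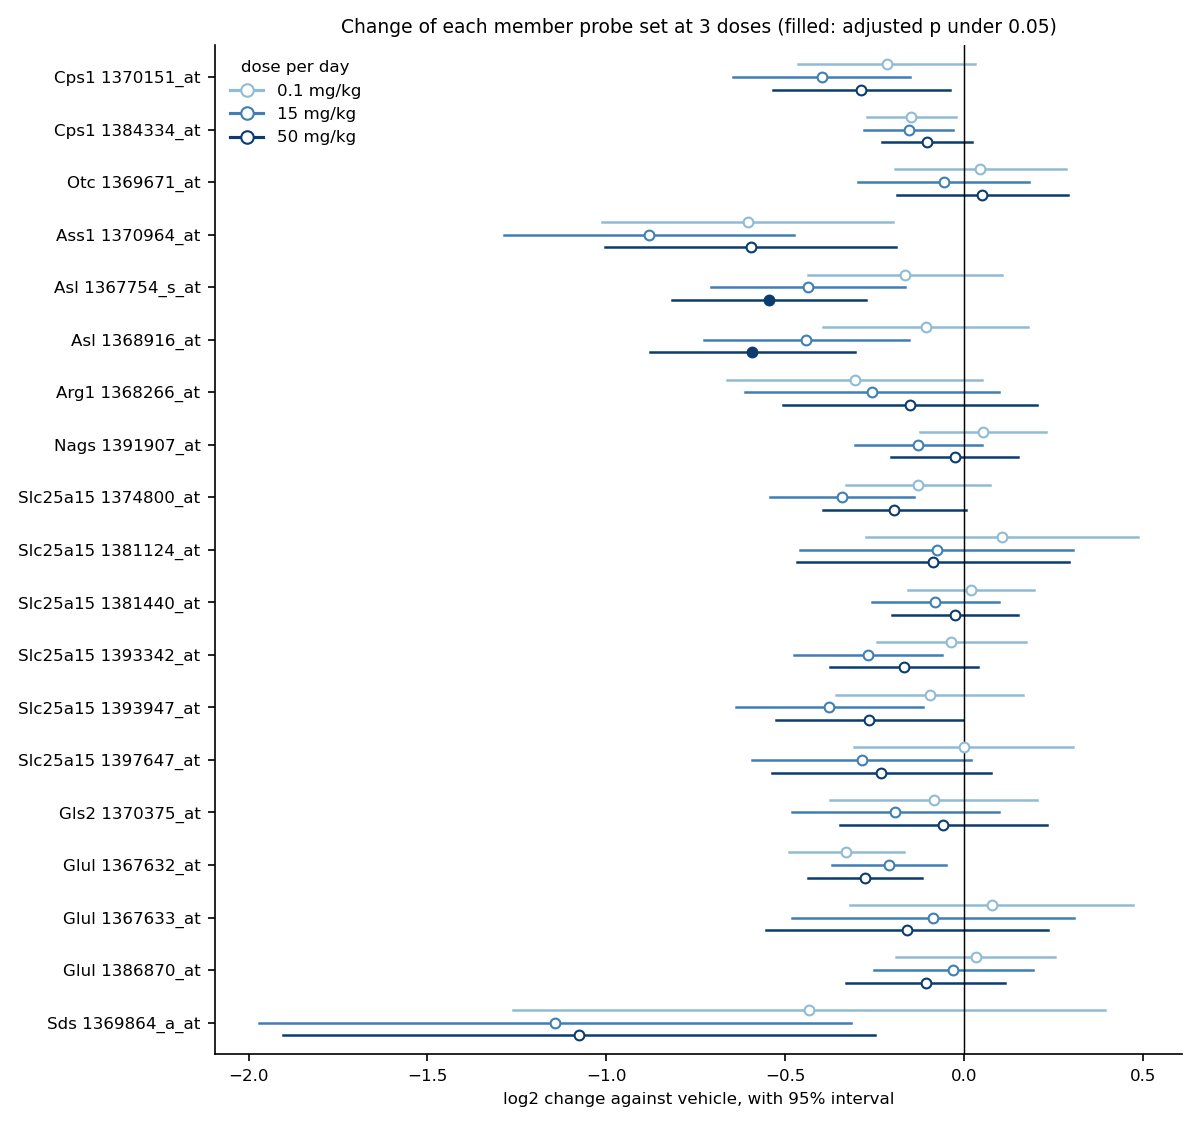
Log2 change against vehicle of each of the 19 probe sets, with the 95% interval of the limma fit, at 0.1, 15 and 50 mg/kg per day (n = 5 arrays per group); filled points have an adjusted p under 0.05. Only the 2 Asl probe sets at 50 mg/kg are filled, at -0.55 and -0.59, and the widest intervals are those of Sds.

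Gls2, the liver glutaminase, frees ammonia from glutamine beside Cps1. On 1370375_at it had 11.54, 11.36, 11.44, 11.64 and 11.14 at 50 mg/kg, against 11.39, 11.70, 11.30, 11.54 and 11.49 in vehicle. The ranges overlapped almost entirely, and the log2 changes were -0.09, -0.19 and -0.06 at 0.1, 15 and 50 mg/kg (interval at 50 mg/kg -0.35 to 0.23). They were -0.11, -0.22 and -0.08 without vehicle replicate 1.

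Glul, glutamine synthetase, was measured by 3 probe sets that did not share 1 pattern. On 1367632_at the vehicle arrays had 11.13, 11.10, 11.20, 11.10 and 11.13, and the 0.1 mg/kg arrays 10.81, 10.63, 11.01, 10.83 and 10.73. The 15 mg/kg arrays had 10.93, 11.07, 10.98, 10.89 and 10.73, and the 50 mg/kg arrays 10.94, 10.94, 10.84, 10.64 and 10.89. All 15 dosed arrays were below all 5 vehicle arrays, which held for 1 of the 19 probe sets and for 7 of all 31042 (0.0226%, or 0.0591% of the bright ones), and at 0.1 mg/kg alone for 0.474% of all. The vehicle arrays were also close together, with an SD of 0.04, against 0.12 at 50 mg/kg. The change did not pass the test at any dose: -0.33 at 0.1 mg/kg (limma adjusted p = 0.429), -0.21 at 15 mg/kg (adjusted p = 0.286) and -0.28 at 50 mg/kg (interval -0.44 to -0.12, adjusted p = 0.0966). Leaving out vehicle replicate 1 hardly moved it (-0.33, -0.21 and -0.28 at 0.1, 15 and 50 mg/kg, adjusted p = 0.142 at 50 mg/kg). Without the 9 arrays with muscle or pancreas transcripts it was -0.13 at 0.1 mg/kg, where only replicate 3 remained, and -0.25 at 50 mg/kg.

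On the other Glul probe sets the dosed arrays overlapped the vehicle arrays. On 1386870_at the arrays had 10.70 to 10.99 at 50 mg/kg and 10.79 to 11.23 in vehicle, and on 1367633_at they had 8.49 to 9.32 and 8.86 to 9.73. Their changes were 0.03 and 0.08 at 0.1 mg/kg, -0.03 and -0.09 at 15 mg/kg and -0.11 and -0.16 at 50 mg/kg, and without vehicle replicate 1 they were -0.01 and 0.03, -0.07 and -0.14, and -0.15 and -0.21. They followed each other across arrays within the groups (r = 0.90, rho = 0.88, permutation p = 1e-05, adjusted p = 1e-04, r = 0.90 without the 2 farthest arrays), whereas 1367632_at followed neither (r = 0.07 and rho = -0.08 with 1386870_at, r = -0.08 and rho = -0.15 with 1367633_at, permutation p for r 0.776 and 0.741, adjusted p = 0.817 for both). The difference between 1367632_at and the mean of the other 2 was 0.94 ± 0.30 at 50 mg/kg and 1.08 ± 0.31 in vehicle (SD, n = 5 each, exact permutation p = 0.437, two-sided). At 0.1 mg/kg it was 0.70 ± 0.29, against the same vehicle value (exact permutation p = 0.0794, adjusted p = 0.238 over 3 doses, smallest possible p 0.00794), so the probe sets were not shown to respond differently. With the actin 3' to 5' difference in the fit, the changes at 50 mg/kg were -0.31 on 1367632_at (limma adjusted p = 0.0759), -0.01 on 1386870_at and 0.03 on 1367633_at. The difference between the probe sets was not tested in that fit.

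Sds, serine dehydratase, turns serine into pyruvate and ammonia and in rat liver is induced by fasting hormones. Among the 19 probe sets it had the largest change at 15 and 50 mg/kg and the largest standard error. On 1369864_a_at the vehicle arrays had 9.12, 7.81, 7.89, 7.06 and 7.86, and the 0.1 mg/kg arrays 8.34, 6.35, 7.47, 7.10 and 8.32. The 15 mg/kg arrays had 5.85, 7.57, 6.65, 6.57 and 7.39, and the 50 mg/kg arrays 7.10, 7.26, 6.20, 7.08 and 6.71. Vehicle replicate 1 was the highest of all 20 arrays, and the groups overlapped at every dose. The mean was 6.87 ± 0.43 at 50 mg/kg and 7.95 ± 0.74 in vehicle (SD, n = 5 each), a log2 change of -1.08 (SE 0.40, interval -1.90 to -0.25, limma adjusted p = 0.236). At 15 mg/kg it was -1.14 (adjusted p = 0.267) and at 0.1 mg/kg -0.43 (adjusted p = 0.877). Without vehicle replicate 1 the changes at 0.1, 15 and 50 mg/kg were -0.14, -0.85 and -0.78, so that most of the difference at 0.1 mg/kg came with that array. Without the arrays with muscle or pancreas transcripts they were -1.32 and -1.26 at 15 and 50 mg/kg.

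Over the order vehicle, 0.1, 15 and 50 mg/kg, Asl fell. The slope per step was -0.21 on 1368916_at (SE 0.04, limma adjusted p = 0.0159) and -0.19 on 1367754_s_at (SE 0.04, adjusted p = 0.0215), and these were the 2 of 19 probe sets called, against 1.45% of all probe sets in either direction and 0.486% lower. With each single array left out in turn, the slope call held in 20 of 20 fits for 1368916_at and in 18 of 20 for 1367754_s_at, ending without replicate 3 or 4 at 50 mg/kg (adjusted p = 0.0527 and 0.0582). Without vehicle replicate 1 the adjusted p was 0.039 and 0.0465. It ended without the 9 arrays with muscle or pancreas transcripts, with limma adjusted p = 0.308 and 0.457. The slopes of Sds (-0.39 per step, adjusted p = 0.134), Ass1 (-0.21, adjusted p = 0.105) and Cps1 on 1370151_at (-0.10, adjusted p = 0.196) did not pass. The slope uses the same arrays as the comparisons with vehicle and is no separate evidence.

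Between the 2 higher doses 0 of the 19 probe sets were called, as were 0% of all probe sets, and 0 of 19 had an unadjusted p under 0.05 (5.63% of all). Asl at 50 mg/kg minus 15 mg/kg was -0.15 on 1368916_at (interval -0.44 to 0.14) and -0.11 on 1367754_s_at (interval -0.38 to 0.16). For Ass1 the difference was 0.28 (interval -0.12 to 0.69). These intervals leave room for differences in either direction.

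Within the groups, some members followed each other from array to array. Deviations from the group mean were compared over the 20 arrays for all 45 pairs of the 10 genes, with the brightest probe set of each. Cps1 and Sds followed each other most closely (r = 0.85, rho = 0.83, permutation p = 2e-05 and 3e-05, adjusted p = 9e-04 and 0.00135 over 45 pairs, r = 0.78 without the 2 arrays farthest for Cps1, r = 0.81 without vehicle replicate 1). That result is for Cps1 1384334_at. The other Cps1 probe set, 1370151_at, was not compared with other genes. Its agreement with 1384334_at did not pass (r = 0.47, rho = 0.40, permutation p = 0.0719 and 0.126, adjusted p = 0.144 and 0.228 over 20 pairs of probe sets of 1 gene). Otc and Gls2 formed a separate pair (r = 0.62, rho = 0.66, permutation p = 0.00329 and 0.00159, adjusted p = 0.0482 and 0.0358, r = 0.56 without the 2 farthest arrays). Asl with Slc25a15 (r = 0.71, rho = 0.51), Ass1 with Sds (r = 0.67, rho = 0.56) and Cps1 with Ass1 (r = 0.65, rho = 0.58) had permutation p = 0.00415, 0.00456 and 0.00536 for r, each 0.0482 after adjustment, but their rank correlations did not pass (permutation p = 0.045, 0.0175 and 0.017, adjusted p = 0.289 for the first and 0.178 for the other pairs). Without vehicle replicate 1 these 3 pairs had r = 0.62, 0.54 and 0.55, and without the 2 farthest arrays 0.53, 0.50 and 0.55. The strongest correlation of Glul (1367632_at) with another of the genes was r = -0.32, with Gls2 (rho = -0.33, permutation p = 0.247 and 0.193, adjusted p = 0.547 and 0.544).

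Among 11300 single-symbol probe sets of other genes with a mean of at least 6, the deviations most like those of Cps1 (1384334_at) were those of Sds (r = 0.85), Ciapin1 (0.76), Mad2l1bp (0.75), Uqcrh (0.74) and Rnf151 (0.73). For Sds they were Cps1 (0.85), Rnf151 (0.78), C2h4orf3 (0.76), the aminotransferase Got1 (0.75) and Mrpl18 (0.72). For Glul (1367632_at) they were Lmnb1 (0.82), Tmbim4 (0.82), Dnajc9 (0.82), Nde1 (0.82) and Zcchc10 (0.81). Each is the top of a long ranking over 20 arrays that share their processing, given as a description.

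**Figure D4:**
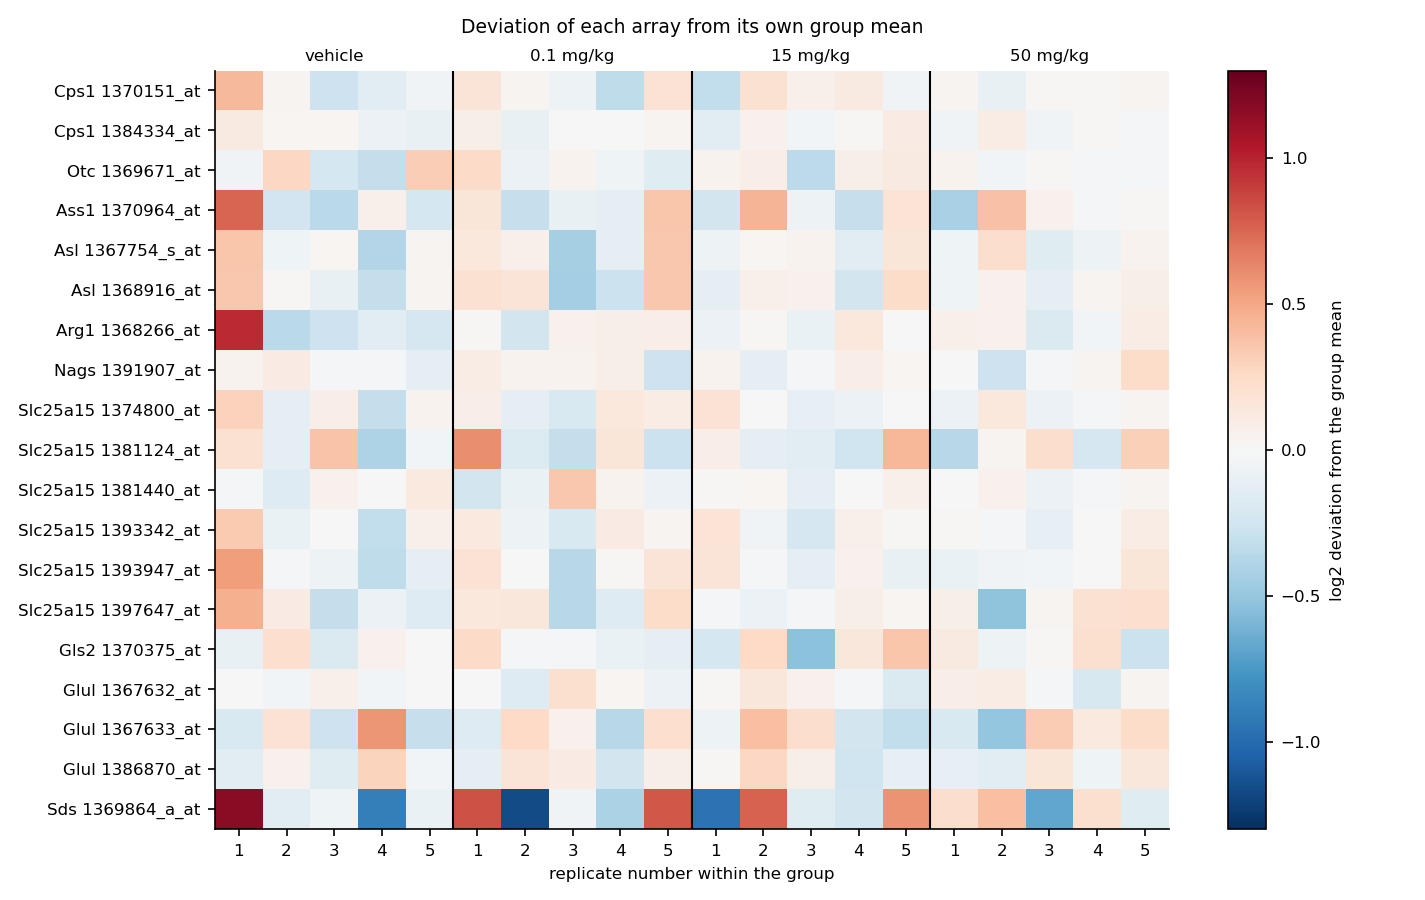
Deviation of each array from the mean of its own dose group, in log2 units, for the 19 probe sets (rows) and the 20 arrays (columns, by group and replicate number); red is above and blue below the group mean. Vehicle replicate 1 is above its group mean for Arg1, Sds, Ass1 and the probe sets of Cps1 and Asl, and the row of Glul 1367632_at is pale throughout.

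Genes that feed nitrogen to the cycle or branch from it gave no calls. Of 39 such genes 35 were measured, and 0 passed the test at 0.1, 15 or 50 mg/kg, against 0%, 0.116% and 0.934% of all probe sets (limma with Benjamini-Hochberg adjustment). An unadjusted p under 0.05, in either direction, was found for 4, 12 and 12 of the 35 at those doses, against 6.87%, 12.1% and 13% of all probe sets. Among the 10 measured genes of glutamate, proline and transamination, Oat, which interconverts ornithine and glutamate semialdehyde, averaged 8.49 ± 0.27 at 50 mg/kg and 9.14 ± 0.33 in vehicle (SD, n = 5 each), a log2 change of -0.65 (limma adjusted p = 0.0813), and the change was -0.82 at 15 mg/kg (adjusted p = 0.0731). The aminotransferase Got1 had -0.50 at 50 mg/kg (limma adjusted p = 0.233), and Aldh4a1, of proline breakdown, 0.23. The list median was -0.09 at 50 mg/kg.

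In amino acid breakdown the 10 genes went both ways, with 4 below 0 and a median of 0.16. Hal, which takes ammonia from histidine, had a log2 change of -0.44 (limma adjusted p = 0.0806), whereas Ftcd, later in the same histidine pathway, had 0.37 (adjusted p = 0.0884) and Gcsh of the glycine cleavage system 0.27 (adjusted p = 0.114). Among 8 measured transporters the mitochondrial aspartate and glutamate carrier Slc25a12 had -0.25 (adjusted p = 0.195), and the glutamine carriers Slc38a2 and Slc38a3 had -0.17 and -0.11. In the arginine branch and the cycle's modifiers, 7 genes, the desuccinylase Sirt5 had 0.35 (adjusted p = 0.185), the mitochondrial carbonic anhydrase Car5a, which supplies bicarbonate to Cps1, 0.54 (adjusted p = 0.205) and Odc1 of polyamine synthesis 0.26.

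**Figure D5:**
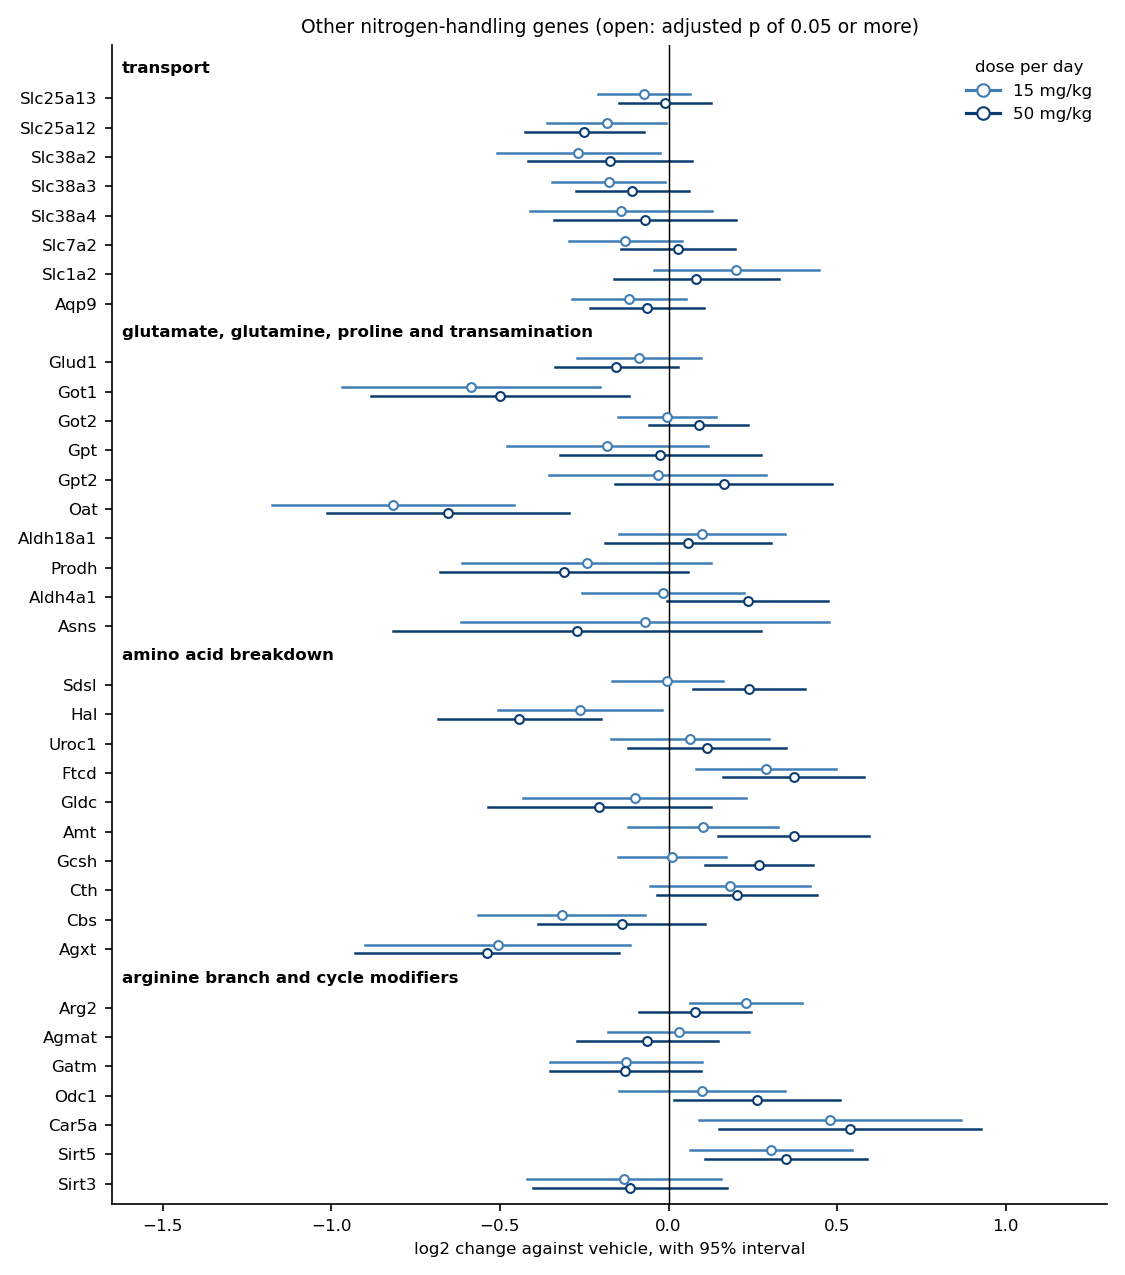
Log2 change against vehicle, with the 95% interval of the limma fit, of the 35 measured genes that feed or leave the urea cycle, at 15 and 50 mg/kg per day (n = 5 arrays per group), in 4 lists. All points are open, since none had an adjusted p under 0.05; Oat lies farthest to the left at both doses, at -0.82 and -0.65.

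Regulators and zonation genes did not pass either. Of 10 listed regulators of hepatocyte and urea cycle genes 9 were measured and 0 were called, with the log2 change at 50 mg/kg 0.39 for Foxa2 (limma adjusted p = 0.333), -0.29 for the coactivator Ppargc1a (adjusted p = 0.372) and -0.18 for Hnf4a (adjusted p = 0.423). At that dose 2 of the 9 regulators, 2 of 7 periportal and 2 of 7 pericentral genes had an unadjusted p under 0.05, against 13% of all probe sets. Of 7 measured periportal genes outside the cycle 0 were called and the median change was 0.02, with Pck1 of gluconeogenesis at -0.20 and Hal and Ftcd as above. Of 7 measured pericentral genes 0 were called: Cyp1a2 had 1.06 (adjusted p = 0.155), Lgr5 -0.21 and Oat, which belongs to this list too, -0.65.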

How the data were processed

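The deposited table holds log2 expression of 31099 probe sets on 20 arrays, made by the authors with RMA according to the submitters' processing notes. The version of RMA is not given in the sources used here. Amplification started from 100 ng of total RNA with a 3' kit, per the labels' protocols. Titles gave the groups and replicate numbers. Without its 57 controls the table held 31042 probe sets, all tested with no filter. The platform annotation gave 1 symbol to 20826 of them, several to 436 and none to 9780, and only those with 1 symbol were named. One mean per group was fitted to all arrays with limma 3.58.1 (R 4.3.3), which moderates each probe set's variance, with Benjamini-Hochberg adjustment within each comparison and calls under 0.05. R/maanova, named for the series, was not run. Precision is limited by 5 arrays per group. The code was tested on simulated data.

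The members and all gene lists were chosen with earlier results of these data known. Lists took the brightest probe set per gene; called genes were named, and otherwise the 3 with the smallest p at 50 mg/kg. Correlations used 100000 permutations of arrays within groups. Alternatives covered the arrays left out, normalization, filters, covariates and a replicate block. Replicate numbers were checked and did not pair the arrays. The number in each array's description starts with a digit from 1 to 4 and each digit spans all groups; the labels do not say what it marks, and it was tried as a block. Promoters and gene names are RefSeq's on GRCr8. Plots used matplotlib 3.10.9 under Python 3.11.15.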

Additional observations from a re-analysis of the deposited data

Results flagged for a closer look

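In 6 of the 76 groups of 5 arrays examined for the 19 probe sets, the highest or lowest array lay farther from its nearest neighbour, relative to the group's range, than Dixon's criterion allows (a ratio over 0.71); chance alone gives about 1 in 20. Arg1 in vehicle replicate 1 was 13.53, which was 1.10 log2 units above the next vehicle array. Arg1 was lowest in replicate 2 at 0.1 mg/kg, at 12.02. Otc was lowest in replicate 3 at 15 mg/kg, at 11.74, and Nags was lowest in replicate 5 at 0.1 mg/kg, at 9.45. At 50 mg/kg replicate 2 was the lowest for Cps1 on 1370151_at, at 12.04, only 0.11 below its neighbour, and for Slc25a15 on 1397647_at, at 7.43, which was 0.56 below.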

How the results depend on the processing

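At 50 mg/kg, where 290 probe sets and 2 member probe sets were called, the counts were 89 and 1 with only the groups compared, 21 and 0 without the arrays with muscle or pancreas transcripts, and 193 and 0 with an actin 3'/5' covariate. The member count was 0 with muscle, pancreas and erythroid list means as covariates, and 1 with another quantile normalization and with equal medians. With 1 probe set per gene, 10 member probe sets remained, only 1 of them of Asl, and that 1 was called. At 15 mg/kg 36 probe sets were called, against 11 with only the groups compared, 7 without those arrays and 21 with the tissue covariates. The slope had 449 calls, 2 of them members, against 33 and 0 without those arrays; with 1 probe set per gene 1 member slope was called. A single slope was the most that Asl could give there, since only 1 of its probe sets remained. The fit without the arrays with muscle or pancreas transcripts has fewer samples. It has 4, 1, 3 and 3 arrays in vehicle and at 0.1, 15 and 50 mg/kg, with the lone array assumed to vary like the others. Leaving out single arrays gave 0 to 1 calls at 0.1 mg/kg, 14 to 44 at 15 mg/kg, 106 to 276 at 50 mg/kg (0 to 2 members) and 232 to 487 for the slope (1 to 2 members). The replicate block gave 0, 36 and 235 calls at 0.1, 15 and 50 mg/kg and 406 for the slope (2 members at 50 mg/kg), and changed no member's call; the numbers did not pair the samples (30 pairs, correlation of deviations -0.36 to 0.29, median 0.00, and 4 of 20 arrays most like one of their own number). A block on the first digit of each array's description number gave 0, 28 and 238 calls at 0.1, 15 and 50 mg/kg and 414 for the slope, with the same member counts (Asl at 50 mg/kg adjusted p = 0.0265 and 0.0411). Arrays of different groups with the same digit had a median correlation of deviations of 0.04 (37 pairs) and those with another digit -0.02 (113 pairs). Within the 4 digits, of 1 or 2 arrays per group, Asl at 50 mg/kg minus vehicle was -0.99 to -0.25 on 1368916_at and -0.96 to -0.23 on 1367754_s_at. Changes near 0 turned sign at 50 mg/kg for Slc25a15 (1381124_at 0.072 without those arrays, 1381440_at 0.024 with the tissue covariates) and Glul (1367633_at 0.026 with the actin covariate), and at 15 mg/kg for Otc (0.081 without those arrays). With single arrays left out the ranges that crossed 0 were, at 50 mg/kg, Otc -0.026 to 0.13, Arg1 -0.24 to 0.090, Nags -0.087 to 0.041, Slc25a15 -0.19 to 0.0032 (1381124_at) and -0.069 to 0.0063 (1381440_at) and Gls2 -0.11 to 0.011. At 15 mg/kg they were Otc -0.13 to 0.026, Slc25a15 1381124_at -0.19 to 0.014 and Glul -0.19 to 0.056 (1367633_at) and -0.10 to 0.042 (1386870_at), and at 0.1 mg/kg Asl 1368916_at -0.20 to 0.0013. The cause of these shifts was not tested. Slc25a15 1381440_at had a low mean of 3.58, and the main fit had 5 arrays per group.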
